A study of Mus musculus with 9 samples.

Results

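The 10 genes described here are imprinted genes outside the Dlk1-Dio3 region: H19, Peg3, Mest, Plagl1, Cdkn1c, Grb10, Peg10, Sgce, Ndn and Zim1. They are grouped here under the name of growth regulators, and a part of each in growth was not measured. They were taken by name from the 19348 gene symbols of the count table. All 10 had a row, and all 10 were among the 15550 genes that passed the filter on low counts. The cells came from lungs of C57BL/6J mice of the genotype Col1_GFP;Foxf1_tdTomato, and they were sorted into populations with 3 RNA-seq libraries each. In DBL both reporters were on (replicates 1, 3 and 4), in TDonly only the Foxf1 reporter (replicates 1, 2 and 3), and in ColGFP only the type I collagen reporter (replicates 1, 2 and 3). Strain and genotype were the same in every library, so the populations differ in the reporters that the sorted cells showed. The sources differ on the starting material: the extraction protocol speaks of RNA from frozen lungs, while the series design speaks of RNA from sorted subsets, and which holds for these libraries was not settled here. The sources used here do not give the age or number of the mice, the sequences that drive the reporters or the gates of the sort. Nothing in the labels states that replicates are separate animals, so p-values measure the spread between these libraries, which may be technical.

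Imprinted genes are transcribed mainly from the allele of a single parent, an asymmetry set by DNA methylation laid down in the germ line. Many of them act on growth: paternally expressed genes tend to promote it and maternally expressed genes to restrain it, and a group of them is high in fetal tissues and declines after birth. Among the genes described here, H19, Cdkn1c, Grb10 and Zim1 are known in mouse as maternally expressed in most tissues, and Peg3, Mest, Plagl1, Peg10, Sgce and Ndn as paternally expressed. The counts sum both alleles of an inbred strain, so parental origin was not measured.

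Total counts were 17820969 to 26147475 per library. Levels are in CPM, the counts of a gene relative to the library size after TMM scaling, as mean ± SD with n = 3 libraries per population. A log2 fold change stands with its standard error, and a call means an adjusted p under 0.05. Foxf1, the gene behind the red reporter, averaged 101 ± 13.1 CPM in DBL, 246 ± 28.5 in TDonly and 59.7 ± 4.47 in ColGFP, and the collagen gene Col1a1 averaged 11668 ± 1908 CPM in DBL, 1144 ± 669 in TDonly and 7904 ± 2577 in ColGFP. The replicate 1 library of each population has a sequencing core number from a lower series than the others, which no label calls a batch. In TDonly that library held less collagen RNA, with Col1a1 at 373 CPM in replicate 1 and at 1493 and 1566 CPM in replicates 2 and 3. In ColGFP, replicate 1 stood apart for some genes too. Dcn had 669 CPM there and 2075 and 2047 CPM in replicates 2 and 3, and Meg3 had 48.9, 104 and 110 CPM.

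Set against the TDonly cells, the cells with the collagen reporter carried more RNA of most of these genes. Between DBL and TDonly all 10 differed: 9 were higher in DBL and 1, Mest, was lower, with no overlap between the libraries of any. Among all genes tested 17.3% were called higher and 12.6% lower, and the libraries did not overlap for 23.8% with DBL higher and for 23.2% with DBL lower. Between TDonly and ColGFP, Mest was higher in TDonly, 8 genes were lower, and Peg3 was not called; the same 9 were those whose libraries did not overlap. The background there was 21.6% called higher and 24.0% called lower, with 27.3% not overlapping with TDonly higher and 28.8% with TDonly lower. In bulk libraries, fewer cells of a type and less RNA per cell cannot be told apart.

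DBL and ColGFP, which both carry the collagen reporter, differed in 2 of the 10 genes: Mest and Zim1 were higher in DBL. Among all genes tested 8.04% were called higher and 6.47% lower. None of the 10 was called lower by edgeR at the adjusted threshold, while 2, Grb10 and Sgce, were lower at an unadjusted p under 0.05, and DESeq2 and limma-voom each called both of them. The libraries did not overlap for 3 genes with DBL higher (Peg3, Mest and Zim1) and for 2 with DBL lower (Grb10 and Sgce), where the background was 16.9% and 16.4% of genes. The median log2 fold change of the 10 genes was -0.02 for DBL over ColGFP, 0.95 for DBL over TDonly and -1.22 for TDonly over ColGFP, beside -0.00, -0.04 and 0.02 over all genes tested. These comparisons share libraries, so their values are not independent of each other.

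**Figure D1:**
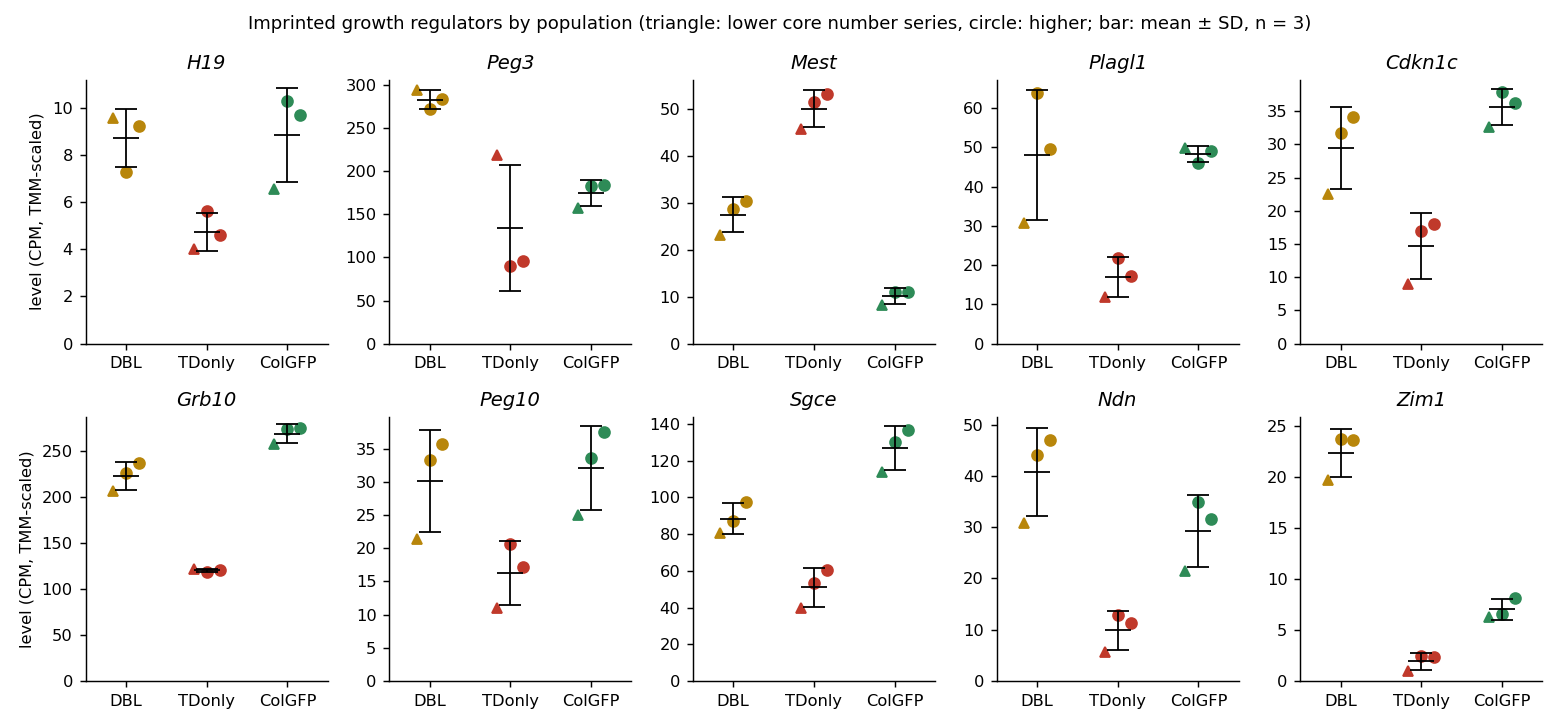
Level of each of the 10 genes in CPM (vertical axis, linear from 0) in the DBL, TDonly and ColGFP libraries; triangles are the replicate 1 libraries of the lower core number series, circles the others, and bars the mean ± SD of 3 libraries. Mest is highest in the TDonly libraries (45.8 to 53.2 CPM), Zim1 is highest in the DBL libraries (19.6 to 23.7 CPM), and Peg3 in TDonly replicate 1 (219 CPM) lies far above the other TDonly libraries.

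**Figure D2:**
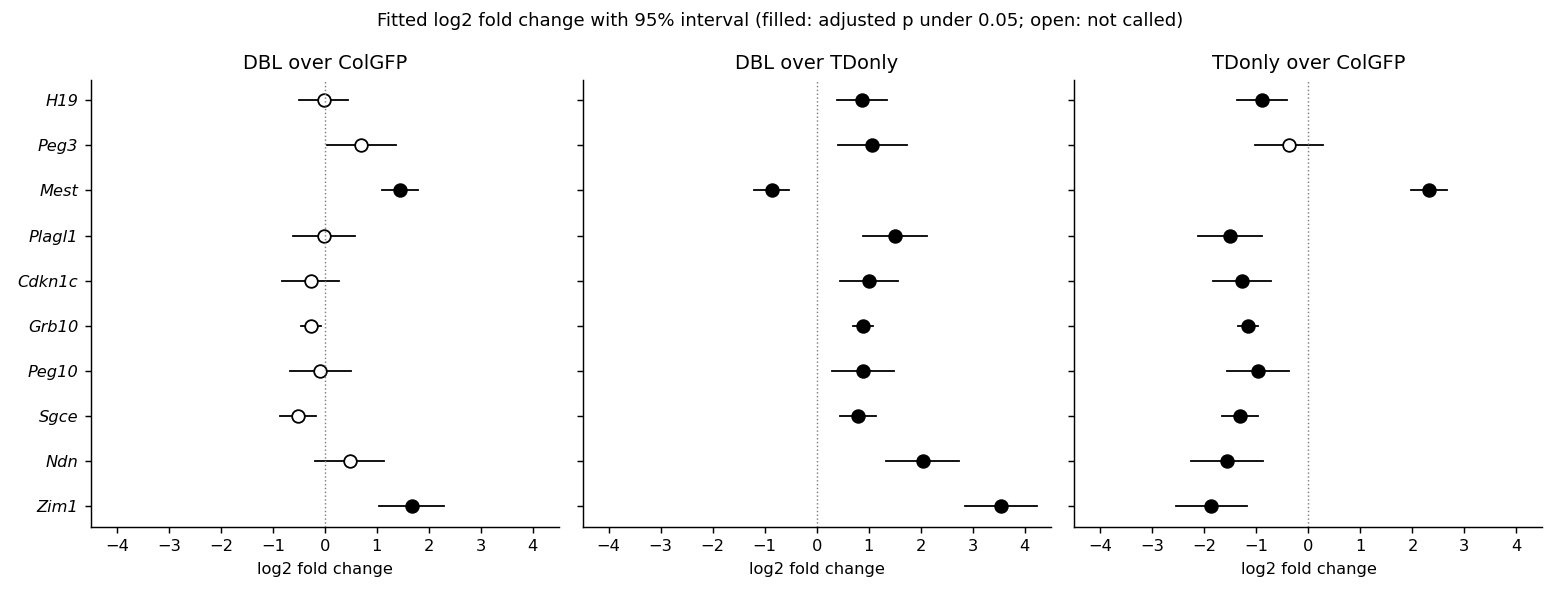
Fitted log2 fold change (horizontal axis) of each gene with its 95% interval in the 3 comparisons; filled points passed an adjusted p of 0.05 and open points did not. All 10 points are filled for DBL over TDonly, 9 for TDonly over ColGFP and 2 (Mest and Zim1) for DBL over ColGFP.

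Zim1 and Peg3 encode zinc finger proteins and lie side by side on mouse chromosome 7 in a single imprinted domain, in which Peg3 is known as paternally and Zim1 as maternally expressed. In GRCm38 (GENCODE M21), Zim1 spans 6671269 to 6696450 and Peg3 6703892 to 6730431, both on the minus strand. Their start regions are shown because these neighbours differed in their calls over the 9 libraries. Zim1 was called in all 3 comparisons and Peg3 only between DBL and TDonly. Without TDonly replicate 1, Peg3 was also called in both comparisons with ColGFP, in the directions of Zim1. Each sequence, from RefSeq (GRCm38.p6), holds 250 bases before and 50 after the annotated start, 5′ to 3′ on the minus strand, with CpG dinucleotides, the sites of imprinting methylation, in capitals.
Zim1 (chr7:6696383-6696682): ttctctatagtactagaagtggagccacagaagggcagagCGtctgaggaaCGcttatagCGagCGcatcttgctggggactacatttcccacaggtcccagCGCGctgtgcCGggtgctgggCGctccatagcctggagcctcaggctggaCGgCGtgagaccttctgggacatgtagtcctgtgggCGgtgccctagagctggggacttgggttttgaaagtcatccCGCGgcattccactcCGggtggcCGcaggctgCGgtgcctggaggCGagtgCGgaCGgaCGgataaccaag
Peg3 (chr7:6730370-6730669): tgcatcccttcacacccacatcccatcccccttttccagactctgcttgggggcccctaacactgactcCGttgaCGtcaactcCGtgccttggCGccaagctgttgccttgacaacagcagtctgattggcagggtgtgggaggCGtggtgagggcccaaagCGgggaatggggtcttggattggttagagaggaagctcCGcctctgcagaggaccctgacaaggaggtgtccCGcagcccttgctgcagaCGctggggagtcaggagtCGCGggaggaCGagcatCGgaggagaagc
The Zim1 window held 20 CpG and the Peg3 window 13, and 26.5% and 37.9% of 32841 mouse promoter windows of this length held at least as many. Both strands of the windows of the 6 genes with an entry in the table (Peg3, Mest, Plagl1, Grb10, Ndn and Zim1) were searched for 2 words. GGGGCCCC, a palindrome bound by the protein that Plagl1 encodes, occurred once, in the Peg3 window, and in 1.08% of all windows. GCCATNTT, the core word of the factor YY1, occurred in 0 of the windows of these genes and in 6.05% of all windows.

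Zim1 had 19.6, 23.7 and 23.6 CPM in the DBL libraries, 0.935, 2.48 and 2.33 CPM in the TDonly libraries and 6.26, 6.59 and 8.13 CPM in the ColGFP libraries. Every DBL library lay above every library of the other populations, and every ColGFP library above every TDonly library. In TDonly these levels rest on 24, 62 and 53 counts. Zim1 was 11.7-fold higher in DBL than in TDonly (log2 fold change 3.54 ± 0.31, adjusted p = 7.9e-05), the largest change among the 10 genes. It was 3.19-fold higher in DBL than in ColGFP (log2 1.67 ± 0.28, adjusted p = 0.00347). In TDonly it was lower than in ColGFP, with a log2 fold change of -1.87 ± 0.30 (adjusted p = 0.000735).

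Peg3 had 295, 272 and 283 CPM in the DBL libraries, 219, 89.6 and 95.4 CPM in the TDonly libraries and 157, 183 and 184 CPM in the ColGFP libraries. All DBL libraries were above all others, and TDonly replicate 1 was above every ColGFP library while TDonly replicates 2 and 3 were below them. The DBL excess over TDonly passed the test (log2 fold change 1.07 ± 0.30, adjusted p = 0.0223). That call was lost without DBL replicate 3, TDonly replicate 2 or TDonly replicate 3, with adjusted p of 0.0526 to 0.0770. DBL over ColGFP did not pass (log2 0.70 ± 0.30, interval 0.04 to 1.36, adjusted p = 0.162), but without TDonly replicate 1 the same change had an adjusted p of 0.000794. TDonly over ColGFP did not pass either (log2 -0.37 ± 0.29, interval -1.04 to 0.29, adjusted p = 0.329). Without TDonly replicate 1 it was -0.92 (adjusted p = 0.00012). Usp29, the neighbour on the other strand of the domain, had 1 to 20 counts per library and was not tested.

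Mest, which encodes a hydrolase-like protein of the endoplasmic reticulum and is known as a mesoderm-specific transcript, was the gene that ran against the others. It lies on chromosome 6 (30723547 to 30748465, plus strand). It has an upstream start and the downstream start that carries its imprinted promoter, and RefSeq lists both, shown here because the counts per gene join transcripts of each. CpG dinucleotides are in capitals, 5′ to 3′ on the plus strand.
Mest upstream start (chr6:30733256-30733555): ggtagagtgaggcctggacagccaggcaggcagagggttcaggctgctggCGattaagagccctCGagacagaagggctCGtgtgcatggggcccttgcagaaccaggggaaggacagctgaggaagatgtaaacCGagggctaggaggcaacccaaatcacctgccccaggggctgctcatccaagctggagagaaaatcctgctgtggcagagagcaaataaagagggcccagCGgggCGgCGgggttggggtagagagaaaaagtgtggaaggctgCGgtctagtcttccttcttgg
Mest downstream start (chr6:30737800-30738099): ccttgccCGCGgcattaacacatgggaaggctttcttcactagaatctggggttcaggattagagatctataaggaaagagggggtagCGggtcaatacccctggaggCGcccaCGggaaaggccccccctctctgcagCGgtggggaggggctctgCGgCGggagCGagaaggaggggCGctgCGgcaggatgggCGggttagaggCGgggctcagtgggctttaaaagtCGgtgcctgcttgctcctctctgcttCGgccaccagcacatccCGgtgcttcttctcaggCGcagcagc
The upstream window held 8 CpG, close to the median of 7 over all windows, and the downstream window held 17, a number that 31.4% of windows reach.

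Mest had 23.3, 28.8 and 30.4 CPM in the DBL libraries, 45.8, 51.5 and 53.2 CPM in the TDonly libraries and 8.14, 11.1 and 11.1 CPM in the ColGFP libraries. No libraries overlapped between populations, and DBL lay between the single-reporter cells. TDonly was 4.97-fold higher than ColGFP (log2 fold change 2.31 ± 0.16, adjusted p = 3.2e-06). DBL was 2.73-fold higher than ColGFP (log2 1.45 ± 0.15, adjusted p = 0.000255) and lower than TDonly (log2 -0.87 ± 0.15, adjusted p = 0.00179). Copg2, a coat protein gene on the opposite strand that shares 912 exonic bases with Mest, had 28.5 ± 0.489 CPM in DBL, 31.8 ± 1.32 in TDonly and 32.3 ± 1.60 in ColGFP and was not called in any comparison (adjusted p = 0.206, 0.189 and 0.854 for DBL over ColGFP, DBL over TDonly and TDonly over ColGFP). The strand setting of the counting is not given, so reads of that shared stretch cannot be assigned to either gene.

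Grb10 and Cdkn1c are restraints on growth. Grb10 encodes an adaptor that binds the activated insulin and IGF1 receptors and dampens their signal, and Cdkn1c encodes p57, an inhibitor of cyclin-dependent kinases that holds cells out of the cycle. Grb10 (chromosome 11, 11930508 to 12038683, minus strand) had 206, 226 and 236 CPM in the DBL libraries, 122, 118 and 120.4 CPM in the TDonly libraries and 257, 273 and 275 CPM in the ColGFP libraries. The libraries of the populations did not overlap, and the TDonly libraries lay close together, with an SD of 1.77 CPM. It was higher in DBL than in TDonly (log2 fold change 0.89 ± 0.09, adjusted p = 0.000118) and lower in TDonly than in ColGFP (log2 -1.16 ± 0.09, adjusted p = 6e-06). The difference between DBL and ColGFP missed the threshold (log2 -0.27 ± 0.09, interval -0.46 to -0.08, adjusted p = 0.0685). It passed by DESeq2 (adjusted p = 0.0229), by limma-voom (adjusted p = 0.0480), with upper-quartile factors (adjusted p = 0.0494) and within the higher core number series (adjusted p = 0.0169).

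Cdkn1c (chromosome 7, 143458339 to 143461050, minus strand) had 22.5, 31.7 and 34.2 CPM in the DBL libraries, 9.002, 17.0 and 18.0 CPM in the TDonly libraries and 32.7, 37.9 and 36.2 CPM in the ColGFP libraries. The TDonly libraries lay below all others, and the DBL and ColGFP libraries overlapped. DBL was 2.01-fold higher than TDonly (log2 fold change 1.01 ± 0.25, adjusted p = 0.0133), and TDonly was lower than ColGFP (log2 -1.28 ± 0.25, adjusted p = 0.00241). For DBL over ColGFP the log2 fold change was -0.27 ± 0.25, with an interval from -0.82 to 0.28 (adjusted p = 0.543). Kcnq1ot1, the long non-coding RNA that silences Cdkn1c on the paternal allele, had 308 ± 56.8 CPM in DBL, 256 ± 42.4 in TDonly and 309 ± 3.005 in ColGFP and was not called (adjusted p = 0.994, 0.222 and 0.178 for DBL over ColGFP, DBL over TDonly and TDonly over ColGFP). A gene model on the opposite strand, Gm44732, shares 625 exonic bases with Cdkn1c.

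Plagl1, also called Zac1, encodes a zinc finger transcription factor that binds other imprinted genes. On chromosome 10 (13060504 to 13131694, plus strand), it had 30.7, 63.8 and 49.5 CPM in the DBL libraries, 11.8, 21.8 and 17.3 CPM in the TDonly libraries and 49.9, 46.0 and 49.1 CPM in the ColGFP libraries. TDonly was below all other libraries, and the DBL libraries spread on both sides of ColGFP. Plagl1 was 2.83-fold higher in DBL than in TDonly (log2 fold change 1.499 ± 0.27, adjusted p = 0.00265) and lower in TDonly than in ColGFP (log2 -1.51 ± 0.27, adjusted p = 0.00152). For DBL over ColGFP the interval ran from -0.61 to 0.59 around -0.01 ± 0.27 (adjusted p = 0.986). Ndn encodes necdin, a protein of the MAGE family that is known to restrain proliferation in neurons and other postmitotic cells. It is a single-exon gene on chromosome 7 (62346569 to 62350262, plus strand) with 30.9, 44.2 and 47.0 CPM in the DBL libraries, 5.57, 12.8 and 11.3 CPM in the TDonly libraries and 21.4, 34.8 and 31.6 CPM in the ColGFP libraries. TDonly again lay below all other libraries. Ndn was 4.11-fold higher in DBL than in TDonly (log2 2.04 ± 0.31, adjusted p = 0.00101) and lower in TDonly than in ColGFP (log2 -1.56 ± 0.31, adjusted p = 0.00254). DBL over ColGFP was 0.48 ± 0.30 (interval -0.19 to 1.15, adjusted p = 0.357).

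Sgce and Peg10 start head to head on chromosome 6, Sgce on the minus strand (4674350 to 4747207) and Peg10 on the plus strand (4747306 to 4760517). Sgce encodes epsilon-sarcoglycan, a membrane protein of the dystrophin-associated complex, and Peg10 derives from a retrotransposon and is needed for the placenta in mouse. Sgce had 80.5, 87.4 and 97.5 CPM in the DBL libraries, 39.6, 53.5 and 60.3 CPM in the TDonly libraries and 114, 130.1 and 137 CPM in the ColGFP libraries, in 3 ranges that did not overlap. It was higher in DBL than in TDonly (log2 fold change 0.79 ± 0.15, adjusted p = 0.00379) and lower in TDonly than in ColGFP (log2 -1.31 ± 0.16, adjusted p = 0.000101). The lower level in DBL than in ColGFP just missed the threshold (log2 -0.52 ± 0.15, interval -0.87 to -0.18, adjusted p = 0.0508). It passed without TDonly replicate 1 or 3 (adjusted p = 0.00920 and 0.0429), by DESeq2 (adjusted p = 0.0328) and by limma-voom (adjusted p = 0.0425).

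Peg10 had 21.4, 33.3 and 35.7 CPM in the DBL libraries, 11.1, 20.6 and 17.2 CPM in the TDonly libraries and 25.1, 33.6 and 37.5 CPM in the ColGFP libraries. DBL and ColGFP overlapped, and the lowest DBL library was close to the highest TDonly library. Peg10 was higher in DBL than in TDonly (log2 fold change 0.89 ± 0.26, adjusted p = 0.0303) and lower in TDonly than in ColGFP (log2 -0.98 ± 0.26, adjusted p = 0.0136). The DBL excess over TDonly was not called when DBL replicate 3 or 4 was left out (adjusted p = 0.0954 and 0.0941), or TDonly replicate 1 or 3 (adjusted p = 0.0698 and 0.0674). For DBL over ColGFP it was -0.09 ± 0.26 (interval -0.67 to 0.50, adjusted p = 0.872).

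H19 is a long non-coding RNA that is abundant in the fetus, is the host of the microRNA gene Mir675 and shares its imprinting control with the growth factor gene Igf2. On chromosome 7 (142575529 to 142578143, minus strand), it had 9.57, 7.30 and 9.25 CPM in the DBL libraries, 4.01, 5.61 and 4.62 CPM in the TDonly libraries and 6.57, 10.3 and 9.70 CPM in the ColGFP libraries. The TDonly libraries were the lowest, with 103 to 140 counts each. H19 was 1.83-fold higher in DBL than in TDonly (log2 fold change 0.88 ± 0.22, adjusted p = 0.0126) and lower in TDonly than in ColGFP (log2 -0.90 ± 0.22, adjusted p = 0.00753). For DBL over ColGFP the interval ran from -0.50 to 0.45 around -0.02 ± 0.21 (adjusted p = 0.968). Igf2, its paternally expressed neighbour, averaged 80.4 ± 35.4 CPM in DBL, 16.1 ± 4.21 in TDonly and 60.6 ± 5.08 in ColGFP. Like H19, Igf2 was higher in DBL than in TDonly (log2 2.33 ± 0.33, adjusted p = 0.000681) and lower in TDonly than in ColGFP (log2 -1.92 ± 0.33, adjusted p = 0.00101), and it was not called between DBL and ColGFP (log2 0.41 ± 0.31, adjusted p = 0.465).

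Per kilobase of exon in GENCODE M21, the mean over all 9 libraries ordered the genes from Grb10 (22.4 CPM per kb) through Peg3 (14.8), Cdkn1c (13.04), Sgce (8.37), Mest (7.42), Ndn (7.21), Plagl1 (4.83), Peg10 (3.93) and H19 (3.02) to Zim1 (1.29). The order differed between populations. In DBL, Grb10 (24.5 ± 1.67 CPM per kb) and Peg3 (21.3 ± 0.856) led, and of the neighbours in the order Mest, Plagl1, Peg10 and H19 each differed from the next by less than the larger of their SDs. In TDonly, Grb10 (13.2 ± 0.195) and Mest (12.7 ± 0.984) led and Zim1 was last at 0.237 ± 0.105. There the neighbours Grb10, Mest, Peg3, Cdkn1c and Sgce, and likewise Ndn, Peg10, Plagl1 and H19, each lay within the larger SD of the next. In ColGFP, Grb10 (29.5 ± 1.11) and Cdkn1c (17.5 ± 1.31) led, Mest was next to last at 2.56 ± 0.430, and the neighbours within their larger SD were Peg3 with Sgce and Ndn with Plagl1.

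**Figure D3:**
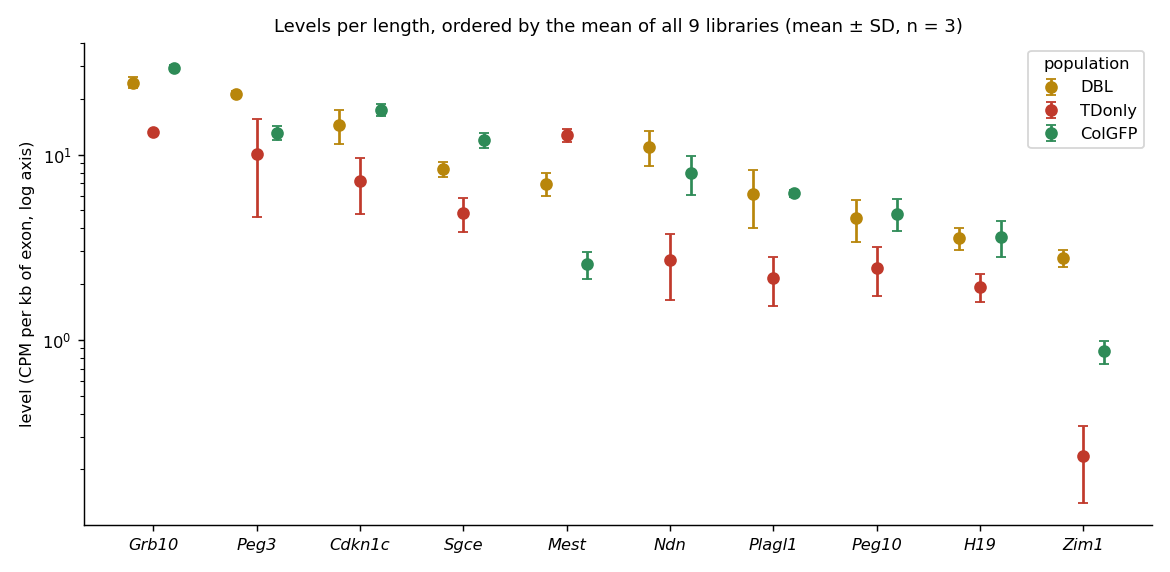
Level of each gene per kilobase of exon (vertical axis, log scale) as mean ± SD of 3 libraries in DBL, TDonly and ColGFP, ordered by the mean of all 9 libraries. Grb10 stands first at 22.4 CPM per kb over all libraries and Zim1 last at 1.29, and the TDonly point is the lowest of the 3 for every gene but Mest.

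The replicate 1 libraries were set against the other libraries by ratios within trios of consecutive core numbers, a comparison chosen after seeing the data. Within TDonly, H19, Mest, Plagl1, Cdkn1c, Peg10, Sgce, Ndn and Zim1 were lowest in replicate 1. The share of all genes lowest in that library was not computed. Peg3 was highest there (219 CPM), and so was Grb10 by a small margin (122 CPM, against 118 and 120.4 CPM). That library also had the least Col1a1 (373 CPM). The part of the collagen-positive content in these levels was not tested. For Peg3 the log2 ratio of TDonly over ColGFP was 0.48 in the first trio and -1.03 and -0.95 in the others, and the ratio of DBL over TDonly was 0.43, against 1.60 and 1.57. The difference between the series in the change of Peg3 passed for DBL over TDonly and for TDonly over ColGFP, as it did for Plagl1 in DBL over ColGFP and TDonly over ColGFP and for Cdkn1c in TDonly over ColGFP. Among all genes, this test passed for 13.1% in DBL over ColGFP, 4.85% in DBL over TDonly and 16.8% in TDonly over ColGFP. The lower series holds 1 library per population, which was assumed to vary like the others.

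Within the 6 libraries of the higher series, 4 of the 10 (Peg3, Mest, Ndn and Zim1) were called higher in DBL than in ColGFP and 2 (Grb10 and Sgce) lower, against 16.3% and 12.6% of genes. Peg3 changed there by 0.61 (adjusted p = 3e-06), Ndn by 0.47 (adjusted p = 0.00198) and Sgce by -0.52 (adjusted p = 0.000161) on the log2 scale. For DBL over TDonly, 9 were higher and 1 lower, against 23.6% and 19.4% of genes, with Peg3 at 1.63 (adjusted p = 7.6e-12). For TDonly over ColGFP, 1 was higher and 9 lower, Peg3 included at -1.01 (adjusted p = 1.8e-09), against 26.8% and 29.8% of genes. Mest and Zim1 passed in the same direction in all 3 comparisons under each of the 20 alternative settings.

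**Figure D4:**
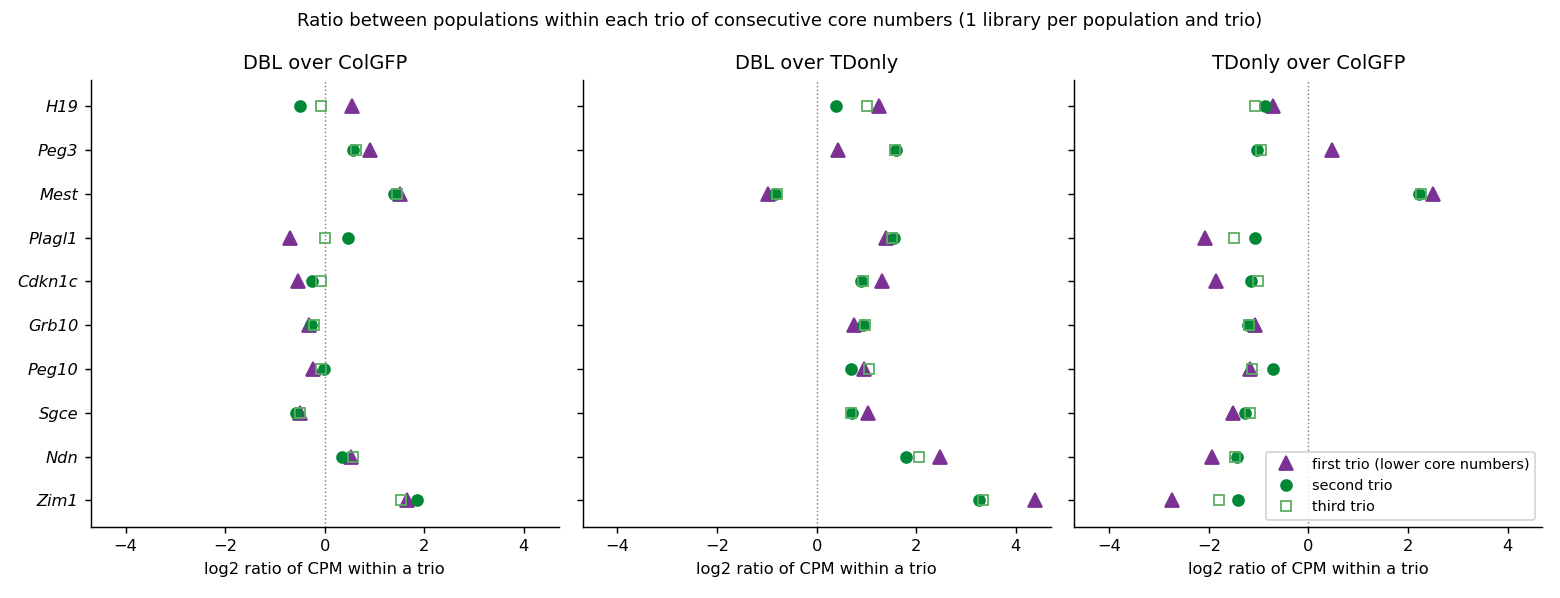
Log2 ratio of CPM (horizontal axis) between populations within each trio of consecutive core numbers, 1 library per population and trio, for the 10 genes. The triangle of the first trio lies apart for Peg3 in TDonly over ColGFP (0.48, against -1.03 and -0.95), while the 3 symbols of Mest lie close together in every panel.

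None of the tested neighbours that follow here matched the calls of the gene beside it in all 3 comparisons. Beside Grb10, Cobl, an actin nucleator, averaged 53.2 ± 2.33 CPM in DBL, 44.4 ± 8.83 in TDonly and 26.7 ± 5.18 in ColGFP. Cobl was higher in DBL than in ColGFP (log2 1.00 ± 0.17, adjusted p = 0.00436) and higher in TDonly than in ColGFP (log2 0.74 ± 0.17, adjusted p = 0.00660), and it was not called between DBL and TDonly (log2 0.26 ± 0.17, adjusted p = 0.285). Ddc, an enzyme of dopamine and serotonin synthesis on the other side of Grb10, had 10 to 177 counts per library and was lower in DBL than in ColGFP (log2 -2.26 ± 0.48, adjusted p = 0.0122, and 0.0543 without DBL replicate 3) and in TDonly than in ColGFP (log2 -2.59 ± 0.49, adjusted p = 0.00201). Beside Sgce and Peg10, Casd1 and Ppp1r9a ran opposite to them: both were lower in DBL than in TDonly (log2 -0.43 ± 0.11, adjusted p = 0.0129, and log2 -0.34 ± 0.11, adjusted p = 0.0376). Both were higher in TDonly than in ColGFP (log2 0.65 ± 0.11, adjusted p = 0.00077, and log2 0.34 ± 0.11, adjusted p = 0.0274). For Casd1 the difference between DBL and TDonly was not called without DBL replicate 4 (adjusted p = 0.0537) or TDonly replicate 2 (adjusted p = 0.0545). For Ppp1r9a that call held only when DBL replicate 3 or ColGFP replicate 1 was the library left out (otherwise the adjusted p was at least 0.0516), and the call between TDonly and ColGFP ended, at an adjusted p of at least 0.0623, on leaving out ColGFP replicate 2, ColGFP replicate 3, TDonly replicate 1 or TDonly replicate 2. Near Ndn, Peg12 (2.80 ± 0.295 CPM in DBL, 2.98 ± 0.552 in TDonly and 2.503 ± 0.482 in ColGFP) and Mkrn3 were not called, and Magel2 had at most 2 counts in any library. Phlda2, near Cdkn1c, had 1 to 12 counts and was not tested.

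A further 42 tested genes were listed as imprinted, and whether they are imprinted in these cells was not measured. Of these, 4 were higher and 5 lower in DBL than in ColGFP, and 13 higher and 6 lower in DBL than in TDonly. In TDonly 10 were higher and 15 lower than in ColGFP. The median log2 fold changes were -0.06, 0.09 and -0.23. Over all genes the shares were 8.04% higher and 6.47% lower, 17.3% and 12.6%, and 21.6% and 24.0% in the same comparisons. Of these counts, the 4 was 2 without DBL replicate 3 and without ColGFP replicate 3, the 5 was 3 without DBL replicate 3, and the 6 was 3 without DBL replicate 4. Cd81, a tetraspanin, averaged 349 ± 39.4 CPM in DBL, 136 ± 23.6 in TDonly and 597 ± 12.2 in ColGFP and changed in all 3 comparisons, with log2 fold changes of -0.78 ± 0.14 for DBL over ColGFP, 1.36 ± 0.14 for DBL over TDonly and -2.14 ± 0.15 for TDonly over ColGFP. Slc22a3, an organic cation transporter, was lower in DBL than in ColGFP (log2 -2.19 ± 0.40), and so was Zrsr1 (log2 -0.71 ± 0.12). Qpct, which forms pyroglutamate on peptides, was higher in DBL than in TDonly (log2 2.9997 ± 0.36), while Peg13 (log2 -0.71 ± 0.09) and Pon2 (log2 -0.72 ± 0.09) were lower. In the Dlk1-Dio3 region, Meg3 was higher in DBL than in ColGFP (log2 1.25 ± 0.28, adjusted p = 0.0151), and 5 of its 6 genes were higher in DBL than in TDonly.

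The insulin and IGF pathway on which Grb10 acts had 7 genes, 6 of them higher in DBL than in TDonly and 6 lower in TDonly than in ColGFP. Over all genes tested the shares were 17.3% and 24.0%, and 6.47% were lower in DBL than in ColGFP. Igf2 and Igf2r belong both to this pathway list and to the other imprinted genes. The growth factor gene Igf1 averaged 204 ± 33.5 CPM in DBL, 20.3 ± 10.9 in TDonly and 251 ± 29.3 in ColGFP, with a log2 fold change of 3.33 ± 0.38 for DBL over TDonly (adjusted p = 0.000241). Irs2, an adaptor of the insulin receptor, was lower in DBL than in ColGFP (log2 -0.79 ± 0.23, adjusted p = 0.0454), and so was the receptor gene Igf1r (log2 -0.43 ± 0.10, adjusted p = 0.0163). Insr, the insulin receptor, was not called in any comparison and averaged 164 ± 9.05 CPM in DBL, 179 ± 14.6 in TDonly and 195 ± 5.07 in ColGFP. The count of 2 lower pathway genes in DBL against ColGFP became 0 when DBL replicate 1 was omitted, or when either of the ColGFP replicates 2 and 3 was, and 1 on omitting DBL replicate 3, the first ColGFP library or TDonly replicate 3.

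Among 12 paralogs tested, 4 were higher and 1 lower in DBL than in TDonly, and 3 were higher and 7 lower in TDonly than in ColGFP. Over all genes tested the shares were 17.3% and 12.6%, and 21.6% and 24.0%, while 6.47% were lower in DBL than in ColGFP. Between DBL and ColGFP 2 were lower, among them Sgcb, which encodes beta-sarcoglycan and averaged 33.3 ± 1.22 CPM in DBL, 17.7 ± 1.18 in TDonly and 42.1 ± 2.10 in ColGFP (log2 -0.34 ± 0.09, adjusted p = 0.0342 for DBL over ColGFP). Leaving out any single DBL or ColGFP library ended that call for Sgcb, with adjusted p of 0.0553 to 0.116, and the count of 2 was 1 without any of these but ColGFP replicate 3. The 1 lower in DBL than in TDonly became 3 when ColGFP replicate 1 was omitted and 2 when ColGFP replicate 3 was, and the 3 higher in TDonly than in ColGFP were 1 without ColGFP replicate 2 or TDonly replicate 2. No paralog was called higher in DBL than in ColGFP by edgeR, where 2 had an unadjusted p under 0.05 and DESeq2 called 0. The paralogs of Ndn, Maged1 and Maged2, were higher in DBL than in TDonly by 0.98 ± 0.09 and 1.37 ± 0.12 on the log2 scale. Of the paralogs of Grb10 and Cdkn1c, picked out after their values were seen, the adaptor gene Grb14 was lower in DBL than in TDonly (log2 -0.86 ± 0.19, adjusted p = 0.00691), opposite to Grb10. The inhibitor genes Cdkn1a (adjusted p = 0.955, 0.128 and 0.118 for DBL over ColGFP, DBL over TDonly and TDonly over ColGFP) and Cdkn1b (adjusted p = 1, 0.607 and 0.567) were not called.

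Genes of the cell cycle, which Cdkn1c restrains, were described beside it. Of 12 proliferation genes, 8 were higher in TDonly than in ColGFP, among them the replication factor Mcm2 (log2 0.97 ± 0.13), and 1, Mcm2, was lower in DBL than in TDonly (log2 -0.65 ± 0.13, adjusted p = 0.00374). Over all genes tested the shares were 21.6% and 12.6%. The count of 8 dropped to 1 on leaving out ColGFP replicate 3, and to 2 on leaving out either ColGFP replicate 2 or the first TDonly library. Between DBL and ColGFP edgeR called none, where 2 were higher and 0 lower before adjustment (p under 0.05) and DESeq2 called 0. Of 10 factors that maintain imprints, the maintenance methyltransferase gene Dnmt1 averaged 63.2 ± 9.06 CPM in DBL, 86.7 ± 3.95 in TDonly and 40.6 ± 1.01 in ColGFP, higher in DBL than in ColGFP (log2 0.64 ± 0.11, adjusted p = 0.00358) and lower in DBL than in TDonly (log2 -0.46 ± 0.11, adjusted p = 0.00974). It was 1 of 4 such factors higher in TDonly than in ColGFP, where 21.6% of all genes tested were higher. Without DBL replicate 4 the difference of Dnmt1 between DBL and TDonly was -0.36 (adjusted p = 0.0844). The count of 4 was 2 without ColGFP replicate 2, ColGFP replicate 3 or TDonly replicate 1.

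Markers of cell types moved with these comparisons. Over all genes tested, 8.04% were higher and 6.47% lower in DBL than in ColGFP. The shares were 17.3% and 12.6% for DBL over TDonly, and 21.6% and 24.0% for TDonly over ColGFP. The summed level of 20 endothelial markers was 7313 to 9288 CPM in the DBL libraries, 21445 to 23699 in TDonly and 1352 to 1989 in ColGFP, and all 20 were called in each comparison, highest in TDonly and lowest in ColGFP. The sum of 10 fibroblast markers was 33796 to 43863 CPM in DBL, 1412 to 5403 in TDonly and 20516 to 36677 in ColGFP, and 9 were higher in DBL than in TDonly. These markers include the type I collagen genes Col1a1 and Col1a2, so their sum is not independent of the sort. Together with Foxf1 these collagen genes summed to 17094 to 23185 CPM in DBL. Dcn is also in the adventitial list and among the other imprinted genes. Alveolar fibroblast markers summed to 4849 to 5938 CPM in DBL, 2260 to 3466 in TDonly and 16160 to 17560 in ColGFP, and adventitial fibroblast markers to 7700 to 9648 in DBL, 2178 to 2330 in TDonly and 1741 to 4928 in ColGFP. Of the 10 adventitial markers, 7 were higher and 1 lower (0 to 2 without single libraries) in DBL than in TDonly. In TDonly 2 were higher and 6 lower than in ColGFP, the 6 becoming 3 without ColGFP replicate 2. Between DBL and ColGFP 5 were higher (3 to 5 without single libraries) and 0 lower. Mesothelial markers, at 715 to 829 CPM in DBL, 107 to 363 in TDonly and 251 to 320.1 in ColGFP, were higher in DBL than in ColGFP for 7 of 9 and higher in DBL than in TDonly for 8 of 9, and the 7 became 4 when ColGFP replicate 2 was omitted and 3 when ColGFP replicate 3 was. Smooth muscle markers summed to 1163 to 1392 CPM in DBL, 367 to 480.2 in TDonly and 3759 to 6306 in ColGFP, and pericyte markers to 1031 to 1321 in DBL, 192 to 350.2 in TDonly and 904 to 1169.7 in ColGFP. The 10 pericyte markers were mixed: 3 were higher and 6 lower in TDonly than in ColGFP, and 6 were higher in DBL than in TDonly. Between DBL and ColGFP 1 was higher and 1 lower (0 to 3 and 0 to 2 without single libraries). Epithelial and leukocyte markers were present in every population. Epithelial sums were 6325 to 6942 CPM in DBL, 9752 to 12962 in TDonly and 3448 to 10142 in ColGFP. Leukocyte sums were 1286 to 1463 CPM in DBL, 1970.1 to 2751 in TDonly and 891 to 2373 in ColGFP. Of the 10 epithelial markers, 0 were called between DBL and ColGFP, but 5 were higher in DBL without ColGFP replicate 1. Between TDonly and ColGFP 6 were higher in TDonly (2 to 10 without single libraries). No marker was at 0 in every library. The part of these cell types in the levels of the imprinted genes was not tested.

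Across the 9 libraries, the profiles of most of these genes ran together on the log2 CPM scale. Pearson correlations were 0.96 for Cdkn1c with Peg10 and with Sgce, 0.95 for Grb10 with Sgce and 0.95 for Ndn with Zim1. The neighbours Peg10 and Sgce reached 0.89 and the neighbours Peg3 and Zim1 0.66, while Mest was negative with every other gene, between -0.87 (Grb10) and -0.25 (Peg3). For the 4 of highest mean CPM, the genes with the most similar profiles, among those of at least 10 CPM, were Fgd1 (0.998), Lamb1 and Lamc1 (both 0.996) for Grb10, and Tifa (0.959), Ccdc6 (0.949) and Rbfox2 (0.941) for Peg3. For Sgce they included Gabarapl1 (0.997) and Rftn2 (0.996), and for Plagl1 Id4 (0.984), Tyro3 (0.981) and Ugp2 (0.979). These values describe 9 libraries that share 3 populations, and libraries of a population are not independent of its sort.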

How the data were processed

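The deposited values are raw counts of reads per gene symbol, not normalised, which the authors made by trimming with cutadapt, aligning with TopHat to mm10 and counting with HTSeq, per the submitters' processing notes, which give no versions. Ribosomal RNA was depleted before sequencing, per the labels, and the sources used here give neither the strand setting nor the annotation. Columns were matched to samples through the core number in each label, and 3 columns that matched no sample were not used here. Genes were kept by filterByExpr with a minimum count of 10. edgeR's quasi-likelihood model, with 1 mean for each population, used all 9 libraries together (edgeR 4.0.16, R 4.3.3, TMM factors, 6 residual and 3.42 prior degrees of freedom). Tests of each contrast were two-sided, adjusted by the Benjamini-Hochberg method across 15550 genes, with a threshold of 0.05; a standard error is the log2 fold change over the square root of F, and intervals are 95%. Correlations used log2 CPM with a prior count of 2. The script was tested on simulated data. Alternatives were other scalings, DESeq2 1.42.0, limma-voom (limma 3.58.1), no filter, covariates and blocks, only the populations compared, and leaving out libraries. The precision of low genes is limited by their counts. All 10 genes are named; of each other list the 4 genes of lowest adjusted p in a comparison could be named, and every locus neighbour. Where fewer are named, the rest are counted, and a few named by these rules are left out here. The genes, lists and tests were chosen with earlier results of these data known. Gene positions come from GENCODE M21, and promoter sequences from RefSeq, which had entries for 6 of the 10 genes.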

Additional observations from a re-analysis of the deposited data

Results flagged for a closer look

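Among the 10 genes and all comparisons, the change between populations differed between the higher and lower core number series in 5 cases. The test was of the population and series interaction over all genes (edgeR quasi-likelihood, Benjamini-Hochberg adjusted). Over all genes it passed for 13.1% in DBL over ColGFP, 4.85% in DBL over TDonly and 16.8% in TDonly over ColGFP. Whether the 5 cases exceed these shares was not tested. The log2 fold change of Peg3 was higher by 1.16 in the higher series for DBL over TDonly (adjusted p = 6.4e-06), and for TDonly over ColGFP the difference was -1.47 (adjusted p = 4.1e-07). For Plagl1 the difference was 0.95 for DBL over ColGFP (adjusted p = 0.00745) and 0.80 for TDonly over ColGFP (adjusted p = 0.0240). For Cdkn1c it was 0.78 for TDonly over ColGFP (adjusted p = 0.0103). The lower series has a single library of each population, so the difference rests on replicate 1 of each, and what sets those libraries apart was not tested.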

How the results depend on the processing

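Of 600 values (10 genes, 3 comparisons, 20 alternative settings), 553 kept their direction and their side of the threshold, 10 fell short of it, 22 newly passed it and 15 changed sign. The sign changes were all in DBL over ColGFP, none of them called. H19, at -0.02, was 0.047 with library totals, 0.021 by limma-voom, 0.077 with the replicate block, 0.0046 with the core number series and 0.0051 with the core number trio as covariate. Plagl1, at -0.01, was 0.047 with library totals, 0.0033 with only the populations compared and 0.27 within the higher series. Leaving out single libraries moved H19 between -0.17 and 0.091, Plagl1 between -0.27 and 0.23 and Peg10 between -0.22 and 0.11. The count of the 10 genes higher in DBL than in ColGFP, 2, was 4 within the higher series. The count lower, 0, was 2 by DESeq2, by limma-voom, with the series as covariate and within the higher series, and 1 with upper-quartile factors, with the trio as covariate, with only the populations compared and with the replicate block; it was 0 to 1 without single libraries. Ndn passed in DBL over ColGFP with the series (adjusted p = 0.0234) and trio (adjusted p = 0.0398) as covariate. The cause of these changes was not tested. With library totals the median of all genes moved to 0.06, -0.13 and 0.16 for DBL over ColGFP, DBL over TDonly and TDonly over ColGFP, and Peg10 in DBL over TDonly was then at 0.78 (adjusted p = 0.0516).

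Replicate numbers were not taken as pairs, since the labels tie them to nothing shared and not every same-numbered pair deviated together with r over 0.1; r was 0.0926 and 0.0156 (DBL and ColGFP), 0.527 and 0.232 (DBL and TDonly) and 0.102, 0.0450 and 0.0792 (TDonly and ColGFP). By trio of core numbers r was 0.527, 0.306 and 0.340 (DBL and TDonly) and 0.0926, 0.0143 and 0.122 (DBL and ColGFP), and the same as by number for TDonly and ColGFP, so libraries of DBL and TDonly did deviate together. Pairs from different trios of the higher series had a similar r, 0.289 and 0.232 (DBL and TDonly). Pairs of replicate 1 with the higher series had r of -0.424 to -0.358, so DBL and TDonly deviated together by series. The main model holds no term for the series. With the replicate block, Peg3 in DBL over TDonly was at 1.05 (adjusted p = 0.0673) and Sgce in DBL over ColGFP passed at -0.56 (adjusted p = 0.0471), and 3 other imprinted genes were lower in DBL than in ColGFP and 2 lower than in TDonly, against 5 and 6. Within the higher series 8 other imprinted genes were higher and 10 lower in DBL than in ColGFP, against 4 and 5. Over all genes, 2256 were called between DBL and ColGFP, 4512 within the higher series, 1478 without ColGFP replicate 2 and 1468 without ColGFP replicate 3. Depth limits Zim1 in TDonly and the neighbours with few counts.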
